A study of Mus musculus with 3 samples.

Results

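The cells described here are dendritic cells (DC) of irradiated mouse lung that carry genes of the mature, migratory state. They were chosen from single-cell RNA sequencing by a rule on measured values. A cell was a member if at least 3 of the 8 genes Fscn1, Ccl22, Ccr7, Il12b, Cacnb3, Tbc1d4, Il4i1 and Apol7c (the rule genes) and the class II gene H2-Ab1 were above 0, with none of Cd3e, Cd79a, Chil3, C1qa and Epcam above 0, which mark T cells, B cells, macrophages and epithelium. This gave 77 members of 19622 cells. The study compared ways of sparing normal lung from radiation, and the libraries analysed here are 3, each from the lung of 1 female C57BL6/J mouse that the labels mark WT, taken 5 months after a single bilateral thorax irradiation of 13 Gy. The CONV mouse was irradiated at a conventional dose rate. The CONV AsiDNA mouse received the same CONV irradiation together with AsiDNA, a short double-stranded DNA that mimics a DNA break and engages the DNA-PK repair kinase, given by intraperitoneal injection on 3 consecutive days, first 100 mg/kg per day for 2 days and then 200 mg/kg when it was irradiated. The FLASH mouse was irradiated at an ultra-high dose rate without AsiDNA. All 3 groups therefore carry irradiation, and non-irradiated lung was not analysed here. The lungs were dissociated with enzymes and run on the 10x droplet system with no sort for DC. The study's methods give a young adult age for its experiments in general, and these lungs were taken 5 months after irradiation. The labels of these libraries give no age.

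Conventional DC take up antigen in tissues. Type 1 cells (cDC1) are known for presenting antigen to CD8 T cells, and type 2 cells (cDC2) for priming CD4 T cells. On activation, and at a low rate without it, DC of either type mature, put the chemokine receptor CCR7 on their surface, remodel their actin with fascin, and leave for the draining lymph node along gradients of the CCR7 ligands. Mature DC lower uptake and keep peptide-loaded class II molecules at the surface, and they carry both costimulatory ligands and inhibitory ones such as PD-L1.

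With 1 mouse in each group there is no replicate, so no difference between groups was tested, and the treatment, the mouse and the library cannot be told apart. Each deposited value is a natural log that, once reversed and less 1, gives a whole number. This number is called the adjusted count, since its total had a narrow range over cells. Levels are given as the number of members above 0 and as adjusted CPM, the adjusted counts of a gene summed over the members of a library and scaled as counts per 1000000 of their total. The median member had 4356 (CONV), 4524 (CONV AsiDNA) and 4349 (FLASH) adjusted counts, with all 77 between 3781 and 5267, while the median over all cells was 3450, 3678 and 3621. The members held a median of 1264, 1242 and 1119 genes above 0. The libraries shared between 9 and 17 cell barcodes in pairs, none of them a member. A value of 0 in these adjusted data is written as listed at 0, not as absent. The mitochondrial gene mt-Co1 was listed at 0 in every member, and where a gene is listed at 0 on one side its log2 ratio is set by the added 10 adjusted CPM and is not read as a fold.

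The rule genes lie in these places of GRCm38 (GENCODE annotation), all of them protein-coding. Fscn1, which encodes the actin-bundling protein fascin, spans chr5:142960343-142973185 on the plus strand. Ccr7, the receptor for CCL19 and CCL21, spans chr11:99144196-99155077 on the minus strand. Ccl22, a ligand of CCR4 on regulatory and type 2 T cells, spans chr8:94745590-94751699 (plus), and Il12b, the p40 subunit of IL-12 and IL-23, spans chr11:44400063-44414033 (plus). Cacnb3, a calcium channel beta subunit, is at chr15:98630840-98644529 (plus), and Tbc1d4, a Rab GTPase-activating protein, at chr14:101442360-101609191 (minus). Il4i1, a secreted L-amino acid oxidase, is at chr7:44816387-44840809 (plus), Apol7c, an apolipoprotein L gene, at chr15:77524852-77533316 (minus), and H2-Ab1, the class II beta chain, at chr17:34257689-34269419 (plus).

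Promoter windows from RefSeq (GRCm38.p6, 250 bases before to 50 after a gene start) were at hand for 7 of the 8 rule genes, 8 windows in all. They were searched on both strands for GGGNNTTNCC, a form of the NF-kB site, and for TATAAA, the TATA box, because NF-kB genes were among those higher in these cells than in other DC. The first motif is in 0 of those genes and in 4.79% of all 32851 windows, and the second is in 1 of them (Fscn1) and in 13.6% of all windows. The windows of the migration gene Fscn1, of the chemokine gene Ccl22 and of Nfkb2, an NF-kB subunit gene outside the rule, are shown so that a window with a TATA box, one with neither motif and one with 3 matches of the first, 2 of them overlapping, can be compared. They are Fscn1 at chr5:142960105-142960404 (plus), Ccl22 at chr8:94745434-94745733 (plus) and Nfkb2 at chr19:46304487-46304786 (plus), each read 5′ to 3′ on the gene strand with matches in capitals. A match is a description of letters, and its absence says nothing about the factor.
Fscn1: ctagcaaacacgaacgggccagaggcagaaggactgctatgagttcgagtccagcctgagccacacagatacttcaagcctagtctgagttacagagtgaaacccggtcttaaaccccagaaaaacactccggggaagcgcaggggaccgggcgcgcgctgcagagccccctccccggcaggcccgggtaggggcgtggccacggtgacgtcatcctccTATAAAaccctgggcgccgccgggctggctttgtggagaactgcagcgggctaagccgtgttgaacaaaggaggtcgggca
Ccl22: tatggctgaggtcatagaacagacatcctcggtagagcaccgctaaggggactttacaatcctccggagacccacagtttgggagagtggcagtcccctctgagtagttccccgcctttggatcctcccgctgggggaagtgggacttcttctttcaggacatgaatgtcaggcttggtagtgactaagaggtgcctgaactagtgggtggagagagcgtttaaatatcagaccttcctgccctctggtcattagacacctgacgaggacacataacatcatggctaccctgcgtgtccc
Nfkb2: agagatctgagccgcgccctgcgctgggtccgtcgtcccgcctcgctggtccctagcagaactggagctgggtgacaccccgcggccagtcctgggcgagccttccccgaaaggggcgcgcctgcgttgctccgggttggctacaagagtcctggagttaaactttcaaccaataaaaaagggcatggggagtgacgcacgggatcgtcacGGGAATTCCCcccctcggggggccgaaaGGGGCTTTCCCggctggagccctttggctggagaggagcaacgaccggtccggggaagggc

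In CONV the members made up 21 of 6372 cells (0.330%, exact Clopper-Pearson 95% interval 0.204 to 0.503), 37 of 6983 in CONV AsiDNA (0.530%, 0.373 to 0.730) and 19 of 6267 in FLASH (0.303%, 0.183 to 0.473). The intervals overlap, and they cover the sampling of cells only. Over 10 settings CONV AsiDNA was highest in all 10, while CONV lay below FLASH in 8 and above it in 2. Among DC taken by comparable gates the order was another one. A cDC1 gate asked for 2 of Xcr1, Clec9a, Itgae, Naaa and Wdfy4, and a cDC2 gate for 2 of Cd209a, Clec10a, Mgl2 and Clec4b1, each with H2-Ab1. Members were 19.6% (12.6 to 28.4) of 107 gated DC in CONV, 13.0% (9.31 to 17.4) of 285 in CONV AsiDNA and 10.2% (6.26 to 15.5) of 186 in FLASH. The CONV library held 55 cDC1 and 31 cDC2, the CONV AsiDNA library 107 and 141, and the FLASH library 71 and 96. The cDC1 gate of CONV differed from the others: Lyz2, Ccl6 and Fn1, genes known from macrophages, were above 0 in 11, 12 and 11 of its 55 cells, against 2, 2 and 2 of 107 and 2, 3 and 2 of 71, and Xcr1 was above 0 in 63.6% of it against 86.9% and 87.3%. The larger share in CONV thus stood beside fewer gated cDC2 in that library. Members with 5 or more rule genes, a choice made after the data were seen, were 8.41% (3.92 to 15.4), 8.07% (5.18 to 11.9) and 6.45% (3.38 to 11.0) of the same gated DC, so the larger share in CONV lay in members with 3 or 4.

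The number of rule genes in a cell split the members. Over all libraries 25 members carried exactly 3 rule genes, 8 carried 4, 12 carried 5, 12 carried 6, 14 carried 7 and 6 carried all 8. Just outside the threshold, 118 cells met every other condition with exactly 2 rule genes (22 CONV, 52 CONV AsiDNA and 44 FLASH cells), 88 of them with the pair Ccl22 and Tbc1d4. Just inside, 13 of the 25 members with 3 rule genes carried Ccl22, Tbc1d4 and Il4i1, and 6 carried Ccl22, Il12b and Tbc1d4. Of the 118 cells just outside, 2 had Fscn1 above 0 and 2 had Ccr7, whereas 112 had Plbd1, a phospholipase B-like gene that was common in the gated cDC1 and cDC2. A further 62 cells (12, 35 and 15) carried 3 or more rule genes with H2-Ab1 listed at 0, and the excluding genes were not applied in this count. With the excluding genes applied and H2-Ab1 not asked for, 32, 71 and 33 cells met the rule.

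**Figure D1:**
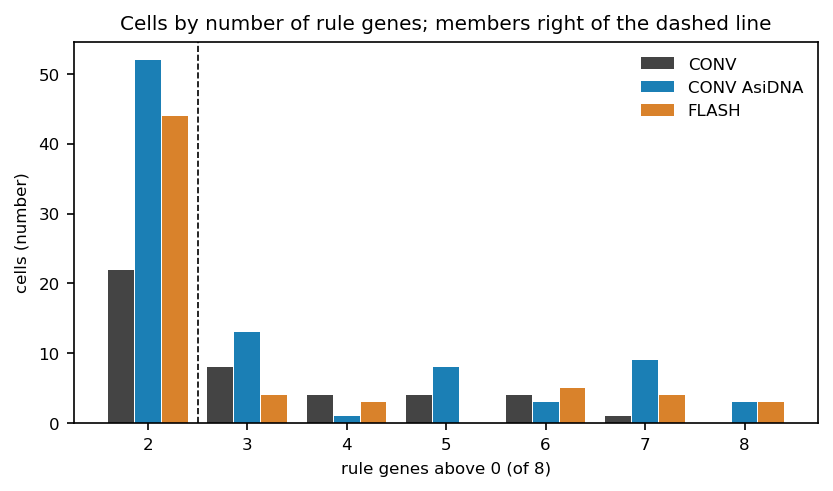
Number of cells (vertical axis) by how many of the 8 rule genes were above 0 (horizontal axis), for cells that met the other conditions of the rule, with 1 bar for each library. The dashed line is the threshold: the 118 cells with 2 rule genes stand left of it, and the 77 members lie right of it, 25 of them with 3 rule genes.

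The label of mature migratory DC was set against the markers. In the 44 members with 5 or more rule genes, Fscn1 was above 0 in 39 and Ccr7 in 43. In the 33 with 3 or 4, Fscn1 was above 0 in 6 and Ccr7 in 9, and genes of resident cDC were found instead. Fscn1 and Ccr7 are rule genes, so their counts follow in part from this division and are no check of the label. Plbd1 was above 0 in 28 of these 33 and in 2 of the 44, Ckb, brain-type creatine kinase, in 22 and 0, Cd209a, a lectin of cDC2, in 15 and 0, and Xcr1, the chemokine receptor of cDC1, in 8 and 0. These genes of resident cDC in the 33 go against the label, and the whole set is therefore called by its rule, as members, in what follows. The 44 were 9 of 21 members in CONV (42.9%, 21.8 to 66.0), 23 of 37 in CONV AsiDNA (62.2%, 44.8 to 77.5) and 12 of 19 in FLASH (63.2%, 38.4 to 83.7), and these intervals overlap.

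Genes outside the rule divided the members in the same way. Since the division uses the cells' own rule genes, the values are a description. Samsn1, an adaptor of lymphocyte signalling, and Tmem123 were above 0 in all 44 members with 5 or more rule genes and in 15 and 17 of the other 33. Cd274, which encodes PD-L1, was above 0 in 32 of 44 against 4 of 33, and Cd40, the receptor for CD40 ligand, in 31 against 11. Tuba1a, an alpha tubulin, was above 0 in 30 against 1 and Nudt17, a nudix hydrolase, in 27 against 0. The NF-kB subunit Relb stood at 1317 adjusted CPM in the 44 and at 265 in the 33. The other way, H2-DMa, a chain of the peptide-exchange factor H2-DM, was above 0 in 11 of 44 against 29 of 33, and Wdfy4, a gene of cross-presentation in cDC1, in 4 against 23. Ccl17, the other CCR4 ligand, did not divide them, with 33 of 44 and 26 of 33. Cd74, the invariant chain of class II, was above 0 in all 77.

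**Figure D2:**
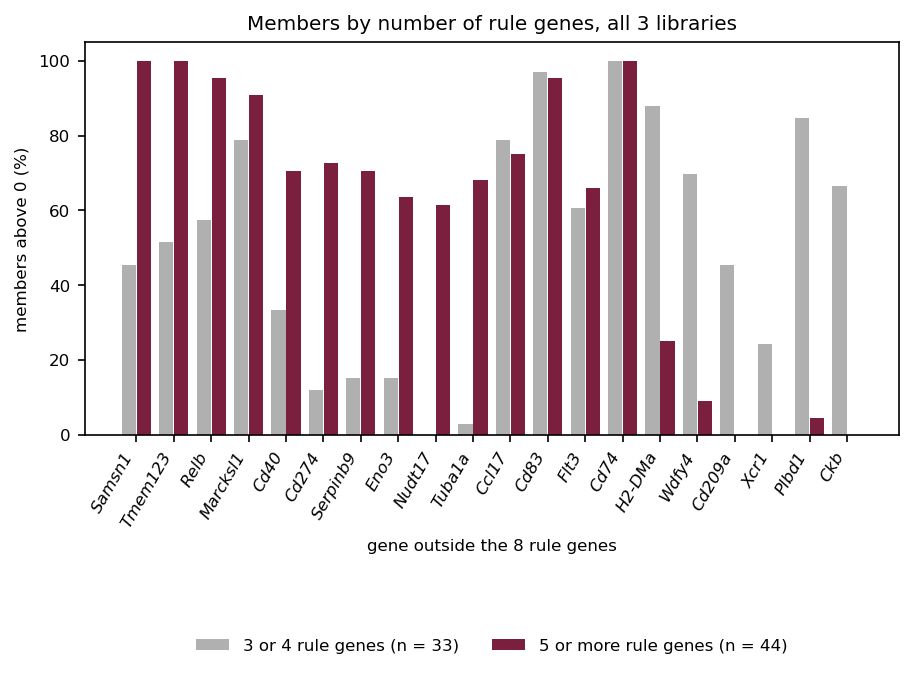
Percent of members with each of 20 genes outside the rule above 0 (vertical axis), for the 33 members with 3 or 4 rule genes (grey) and the 44 with 5 or more (dark red), over the 3 libraries. Samsn1 and Tmem123 reach 100% in the dark red bars, and Cd209a, Xcr1 and Ckb have no dark red bar.

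The values of the rule genes chose the members and are given by role. Among the genes of migration, Fscn1 was above 0 in 11 of 21 CONV members, 22 of 37 CONV AsiDNA members and 12 of 19 FLASH members, at 1386, 1810 and 2945 adjusted CPM. In the members above 0 its adjusted count ran from 2 to 32 in CONV, from 1 to 30 in CONV AsiDNA and from 1 to 49 in FLASH, so that the ranges overlap. Ccr7 was above 0 in 14, 24 and 14 members, at 2420, 2516 and 2716 adjusted CPM. Both genes were present in other lung cells too. Ccr7 was above 0 in 21.1%, 25.5% and 22.7% of all cells of CONV, CONV AsiDNA and FLASH. Fscn1 was above 0 in between 1.71% and 2.13% of all cells of a library, and in 0 of the 233 gated cDC1 and 0 of the 268 cDC2, which allows a share of cells with the gene above 0 in these data of up to 2.58% to 11.2% by the exact upper bound of each gate and library, and does not limit the share that expresses it.

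Of the secreted products, Ccl22 was above 0 in 16, 30 and 18 members of CONV, CONV AsiDNA and FLASH and stood at 3124, 6944 and 10260 adjusted CPM. Its highest member held an adjusted count of 52, 173 and 166, against medians of 13, 14.5 and 33.5 among the members above 0. Il12b was above 0 in 5, 16 and 11 members, at 440, 1840 and 2812 adjusted CPM, with a highest member of 18, 75 and 56. Both genes thus had their lowest summed level in CONV, where the members with 5 or more rule genes were the smallest part. When H2-Ab1 was not asked for, the log2 ratios of CONV over CONV AsiDNA fell under 2-fold, from -1.15 to -0.645 for Ccl22 and from -2.04 to -0.36 for Il12b. Among members with 5 or more rule genes they were larger, at -1.46 and -3.91. That subset is chosen by counting these same genes, and Il12b in CONV then rested on a single member, with an adjusted count of 6. Nothing is read from these 2 values. Whether the part of members with 5 or more rule genes bears on the difference was not tested. Il4i1 was above 0 in 15, 31 and 17 members at 1243, 1544 and 1959 adjusted CPM.

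The remaining rule genes followed other orders. Tbc1d4 was above 0 in all 21 members of CONV, 35 of 37 in CONV AsiDNA and all 19 in FLASH, at 4268, 3614 and 2812 adjusted CPM, the reverse of the order of Ccl22. It was also above 0 in 38 of 55, 76 of 107 and 61 of 71 gated cDC1. Cacnb3 was above 0 in 9, 22 and 9 members at 231, 404 and 264 adjusted CPM and in 0 gated cDC1 or cDC2. Apol7c was listed at 0 in the 21 CONV members and was above 0 in 8 of 37 and 6 of 19 in the other libraries, at 615 and 1430 adjusted CPM. H2-Ab1, which the rule asks for, stood at 11920, 9008 and 11080 adjusted CPM, with single members between 2 and 110.

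**Figure D3:**
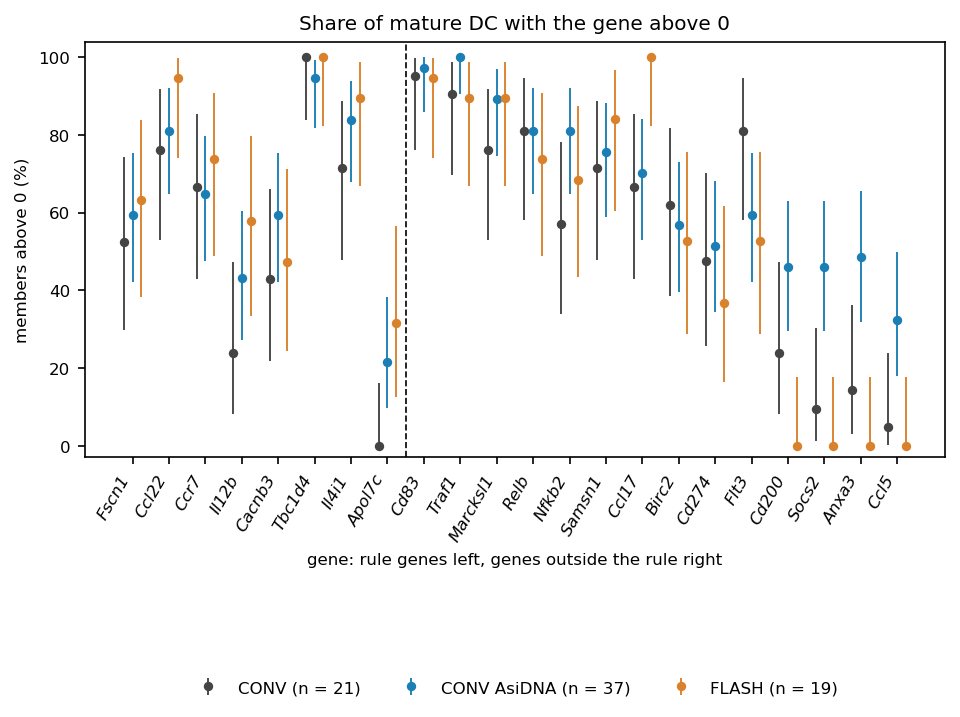
Percent of members with a gene above 0 (vertical axis) for the 8 rule genes left of the dashed line and 14 genes outside the rule right of it, with points for the 3 libraries and bars for exact 95% intervals that cover the sampling of cells. The bars of the 3 libraries overlap for Fscn1, Ccr7 and Relb, and Cd200, Socs2, Anxa3 and Ccl5 stand at 0 in the 19 FLASH members.

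Some markers outside the rule were above 0 in most members and others in few. Cd83, a surface marker of mature DC, was above 0 in 20 of 21, 36 of 37 and 18 of 19 members, and also in 58.2% to 87.9% of the gated cDC1 and cDC2 of a library. Traf1, a TNF receptor adaptor, was above 0 in 19, 37 and 17, Relb in 17, 30 and 14, and Nfkb2, its non-canonical NF-kB partner, in 12, 30 and 13. Marcksl1, an actin-binding protein, was above 0 in 16, 33 and 17. At the other end, Lad1 and Zmynd15 were each above 0 in 2 of 21 CONV members, and Cd200, Socs2, Anxa3 and Ccl5 in 0 of 19 FLASH members. Flt3, the growth factor receptor of conventional DC, was above 0 in 17, 22 and 10, at 429, 241 and 204 adjusted CPM. Among members with Ccl17 above 0 (14, 26 and all 19) the highest held an adjusted count of 196, 243 and 173.

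Compared with gated cDC1 and cDC2 of the same libraries, 158 of 6638 genes outside the rule and the gates were at least 2-fold higher in the members in all 3 libraries and against both gates (2.38%), and 148 were at least 2-fold lower (2.23%). Both counts depended on the settings: with H2-Ab1 not asked for, 259 genes were higher (3.75%) and 231 lower (3.35%). The lower count was 446 (6.72%) with a prior of 1 in place of 10, 464 (7.06%) for members with 4 or more rule genes and 564 (8.62%) for those with 5 or more. The folds use adjusted CPM plus 10, and since the members were chosen by co-expressed genes of the same cells they are a description with no test. Eno3, muscle-type enolase, had a smallest log2 ratio of 4.29 over the 6 comparisons and Samsn1 of 3.43. Serpinb9, which inhibits granzyme B, had a smallest ratio of 3.46 and Serpinb6b, a related inhibitor, of 3.20. The tetraspanin Tspan3, the metalloprotease Mmp25 and Poglut1, an O-glucosyltransferase of Notch, followed at 3.41, 3.29 and 3.25. H2-Eb2, a class II beta chain, stood at 3.09 and Relb at 2.79. Zmynd15, Fam177a and Tmem123 were also among the 15 farthest, with smallest ratios of 3.21, 2.85 and 2.82. For the remaining 3 the smallest ratio was against a gate listed at 0, so only levels are given. Tnfrsf9 (4-1BB) and Nudt17 were listed at 0 in every gated cDC1 and cDC2 and stood in the members at 176, 223 and 168 and at 55, 211 and 288 adjusted CPM in CONV, CONV AsiDNA and FLASH. Tnfrsf4 (OX40) stood at 77, 145 and 132 adjusted CPM and was listed at 0 in the gated cDC1 of each library and in the cDC2 of CONV.

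The genes farthest below the gated cDC were Ccl6, a chemokine of macrophages and other myeloid cells, Lyz2, the lysozyme of myeloid cells, and the proliferation genes Mki67, Ube2c and Cenpf. In the members, Ccl6, Lyz2, Ube2c and Cenpf were listed at 0 in every library and Mki67 in CONV and FLASH, with 3 of 37 members above 0 in CONV AsiDNA. In the gated cDC2 of CONV, Mki67 was above 0 in 2 cells and each of the other 4 genes in 1, as were Ccl6 and Lyz2 in the cDC2 of FLASH. When the gates asked for 3 or more genes, each of the 5 met a gate in which it was listed at 0 as in the members, and the 2-fold difference was lost.

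**Figure D4:**
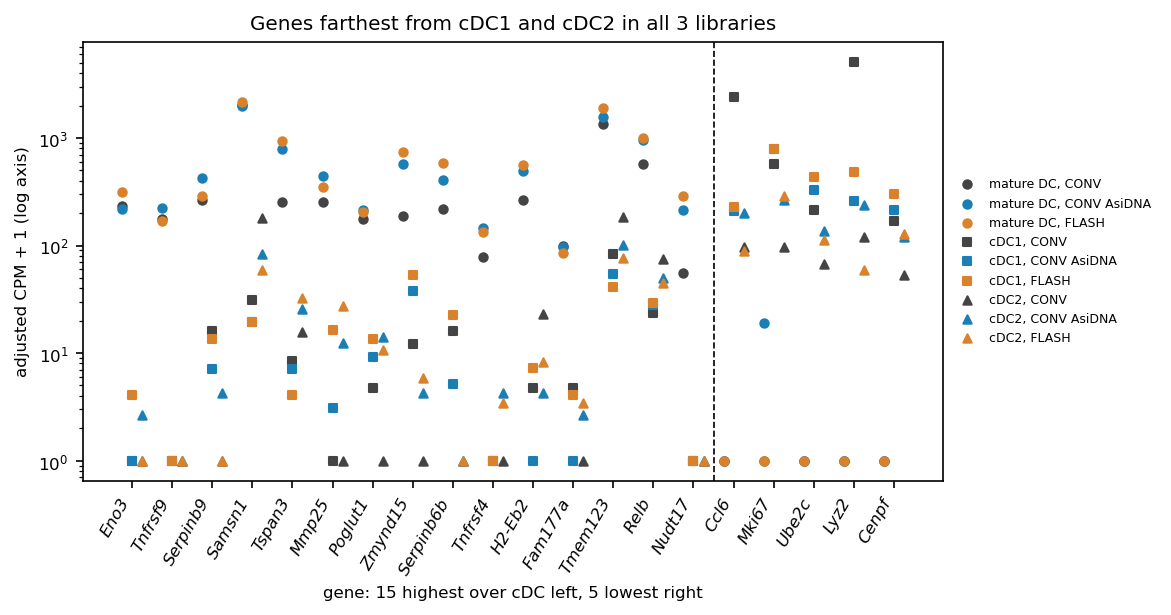
Adjusted CPM plus 1 on a log axis for the 15 genes outside the rule and the gates that lie farthest above cDC1 and cDC2 in all 3 libraries (left of the dashed line) and the 5 farthest below (right), for members (circles), gated cDC1 (squares) and gated cDC2 (triangles), coloured by library. The circles of the 15 genes lie between 55 and 2175 adjusted CPM, and those of the 5 genes lie at 0 except Mki67 in CONV AsiDNA (18.1).

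Grouped by function, the NF-kB and survival genes stood out in number from the gated cDC: 10 of 19 tested were at least 2-fold higher in all comparisons, against the 2.38% over all genes, and 0 were lower. With gates of 3 or more genes 6 of the 19 were higher. Among them were Relb, Nfkb2, Map3k14 (NIK, the kinase of the non-canonical arm) and Birc2, an inhibitor of apoptosis. Of the other mature DC genes, genes known from mature DC but not used by the rule, 12 of 20 were higher and 0 lower, and of the migration and cytoskeleton genes 5 of 17 were higher, Samsn1, Marcksl1, the tubulin Tuba1a and the myosin Myo1g among them. Of the costimulation genes 3 of 12 were higher, of the regulatory molecules 4 of 12, of the receptors of type 2 responses 4 of 15 and of the class I presentation genes 3 of 12, each with 0 lower. Of the class II presentation genes 0 of 11 were higher and 1 was lower, March1, a ubiquitin ligase that removes class II from the surface. H2-Eb2, described above, is not on that list. Of the 14 cell cycle genes 9 were lower and 0 were higher, against 2.23% lower over all genes, but with gates of 3 or more genes, which held 19 cDC2 in CONV, 1 of the 14 was lower. Of the 17 dissociation response genes 2 were lower, Fos and Jun, and 0 higher. Of the chemokines and cytokines 1 of 11 was higher, Ccl17 at 7084, 9201 and 11110 adjusted CPM in CONV, CONV AsiDNA and FLASH, and 1 was lower, Ccl6. With gates of 3 or more genes 0 of the 11 passed in either direction, and for members with 5 or more rule genes 0 were higher.

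Between libraries, 1826 genes with a summed adjusted count of at least 20 over the members were compared. In CONV over CONV AsiDNA, 131 were at least 2-fold higher and 199 lower (18.1% in either direction), in CONV over FLASH 279 and 193 (25.8%), and in CONV AsiDNA over FLASH 196 and 59 (14%). The 3 comparisons share libraries pairwise. CONV AsiDNA held 37 of the 77 members, so genes high in that library reach the minimum sum more readily. Of the 196 genes higher in CONV AsiDNA than in FLASH, 34 were listed at 0 in FLASH. Of the 59 lower ones, 1 was listed at 0 in CONV AsiDNA. In CONV over CONV AsiDNA, 25 of the 199 lower genes were listed at 0 in CONV and 3 of the 131 higher ones in CONV AsiDNA. Nothing is read from the surplus of a direction in these comparisons. The median log2 ratio over all these genes was -0.01, 0.13 and 0.09, and scaling by the median gene ratio moved it to -0.02, 0.01 and -0.01. Under that scaling 122 of 323, 228 of 454 and 158 of 226 genes past 2-fold were the higher ones, so the surplus of higher genes in CONV over FLASH was all but gone. With 19 to 37 cells a side, these shares show how far single libraries lie apart, and the lists below are read beside them. Among the 851 genes with a sum of at least 50 the shares were lower, at 12.7%, 19.6% and 6.82%. Genes listed at 0 in a library enter a list's median at the added 10 adjusted CPM.

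Of the 18 other mature DC genes tested, 0 were higher and 9 lower in CONV against CONV AsiDNA (median log2 -1.002), and 1 was higher and 6 lower against FLASH (median -0.77). The higher one was Anxa3, listed at 0 in FLASH, while CONV AsiDNA against FLASH gave 3 and 0 (median 0.09). Nudt17 was above 0 in 4, 14 and 9 members at 55, 211 and 288 adjusted CPM. Zmynd15, a transcriptional repressor gene, was above 0 in 2, 18 and 11 members at 187, 573 and 733. Its log2 ratio of CONV over CONV AsiDNA fell under 2-fold with 5 or more rule genes (-0.93) and with H2-Ab1 not asked for (-0.42), and that over FLASH without the upper 10% of totals (-0.88) and with H2-Ab1 not asked for (-0.66). Lad1, which encodes an anchoring filament protein, was above 0 in 2, 12 and 9 members at 22, 145 and 192. CONV also had the smallest part of members with 5 or more rule genes, 42.9% against 62.2% and 63.2%. Among those members alone, a choice made after the data were seen and on rule genes of the same cells, the medians were -0.94, -0.59 and 0.12. They rest on 9, 23 and 12 members. With the cells that miss H2-Ab1 added to all members, the medians were -0.54, -0.25 and 0.13. The part of the make-up of the members in these differences was not tested. Cst3, cystatin C, was above 0 in 17, 34 and 19 members at log2 ratios of -0.36 and -0.73 for CONV over the other libraries, under 2-fold.

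Migration and NF-kB genes are given beside the 18.1% and 25.8% of all genes past 2-fold in CONV against CONV AsiDNA and FLASH. Of 16 migration and cytoskeleton genes tested, 0 were higher and 3 lower in CONV against CONV AsiDNA (median -0.35), and 1 and 2 against FLASH (median -0.44). Cd63, listed at 0 in CONV and FLASH, reached the minimum through CONV AsiDNA alone and is 1 of the 3. Nothing is read from that count. Icam1, the adhesion ligand of LFA-1, was above 0 in 4, 21 and 10 members at 165, 241 and 421 adjusted CPM. Swap70, a regulator of Rac and actin in DC, stood at 374, 471 and 541. Of 19 NF-kB and survival genes, 0 were higher and 1 lower in CONV against CONV AsiDNA (median -0.30), and 1 and 1 against FLASH (median -0.12). The 1 lower against CONV AsiDNA was Bcl2l14, above 0 in 3 CONV and 6 CONV AsiDNA members. Nothing is read from that call, since Bcl2l14 reached the minimum only with the counts of CONV AsiDNA. Its log2 ratio of -1.46 turned to 0.078 with H2-Ab1 not asked for. Relb stood at 572, 953 and 998 adjusted CPM, and Nfkbia, the NF-kB inhibitor that NF-kB itself induces, at 1749, 2540 and 3509. Rela, a canonical subunit, ran the other way, with 10 of 21, 9 of 37 and 2 of 19 members above 0. With H2-Ab1 not asked for, the log2 ratios of CONV over FLASH fell under 2-fold for Nfkbia (-0.62), Icam1 (-0.92) and Rela (0.23).

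Costimulatory ligands were close in level. Of 10 tested, 0 passed 2-fold in CONV against either other library, and 2 were higher in CONV AsiDNA than in FLASH. These 2 were Cd40, above 0 in 9, 24 and 9 members at 231, 320 and 144 adjusted CPM, and Cd80, a ligand of CD28 and CTLA-4, above 0 in 12, 21 and 6 members at 187, 235 and 108. Their log2 ratios of 1.10 and 1.05 fell to 0.99 and 0.95 under scaling by the median gene ratio. Cd86, the other ligand of CD28, was above 0 in 17, 25 and 14 members and passed in no comparison.

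The regulatory molecules were compared in the same way. Of 11 tested, 0 were higher and 4 lower in CONV than in CONV AsiDNA, 5 and 2 than in FLASH, and in CONV AsiDNA 4 were higher and 1 lower than in FLASH. Cd200, the ligand of an inhibitory myeloid receptor, was above 0 in 5 of 21 and 17 of 37 members and listed at 0 in the 19 of FLASH. Socs2, an inhibitor of cytokine signalling, was above 0 in 2 and 17 members and listed at 0 in FLASH. Its 2 CONV members held an adjusted count of 2 each, so it reached the minimum sum of 20 through CONV AsiDNA. It is counted among the 4 for that reason. The call of Socs3, another of the 4 at -1.22, was lost with 4 or more rule genes (-0.65) and with H2-Ab1 not asked for (-0.995). Nothing is read from the list's counts. Aldh1a2, which makes retinoic acid, was above 0 in 2, 9 and 8 members at 154, 103 and 373 adjusted CPM, highest in FLASH. Cd274 was above 0 in 10, 19 and 7 members at 209, 277 and 180, less than 2-fold apart. In the whole libraries Cd200 was above 0 in 26.3%, 13.7% and 12.8% of cells and Socs2 in 18.9%, 14.5% and 13.7%, so both genes were measured in FLASH.

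Of the chemokines and cytokines, 9 were tested. In CONV over CONV AsiDNA 4 were higher and 1 lower, over FLASH 2 and 0, and in CONV AsiDNA over FLASH 1 and 3. The direction in CONV over CONV AsiDNA turned with the number of rule genes asked for: the median log2 ratio of 0.22 went to -0.78, with 2 higher and 4 lower, for members with 4 or more. Il1b, the inflammatory cytokine, was above 0 in 10, 13 and 12 members at 2222, 760 and 2284 adjusted CPM, lowest in CONV AsiDNA. With H2-Ab1 not asked for, its log2 ratio of CONV AsiDNA over FLASH went from -1.57 to -0.95, under 2-fold. Ccl4, an inflammatory chemokine, was above 0 in 6, 5 and 2 members at 1650, 404 and 216. Ccl5, a chemokine that attracts T cells, was above 0 in 1 and 12 members, at 341 and 1472 adjusted CPM, and was listed at 0 in the FLASH members. Of the 15 FLASH cells with 3 or more rule genes and H2-Ab1 listed at 0, however, 6 had Ccl5 above 0. Cxcl9, a ligand of CXCR3, rested on 3, 1 and 2 members. Tnf was above 0 in 4, 14 and 9 members and stayed under 2-fold in every comparison.

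In class II presentation, 4 of 10 genes were higher and 0 lower in CONV against CONV AsiDNA (median 0.54), 2 and 0 against FLASH (median 0.19), and 0 and 0 in CONV AsiDNA against FLASH (median -0.33). The surface chains differed little: H2-Aa, the alpha chain, stood at 13270, 11630 and 13030 adjusted CPM, H2-Eb1 at 13870, 12390 and 12730, and Cd74 at 28620, 27120 and 36000. The genes past 2-fold were those of peptide exchange. H2-DMa was above 0 in 16, 11 and 13 members at 748, 326 and 529 adjusted CPM, H2-DMb1, its partner chain, in 14, 10 and 9 at 495, 187 and 240, H2-Oa, which inhibits the exchange, in 16, 11 and 9 at 418, 127 and 240, and H2-Ob in 8, 8 and 5. H2-DMa and H2-DMb1 are genes of the members with 3 or 4 rule genes (29 and 25 of 33, against 11 and 8 of 44), which made up 12 of 21 members in CONV, 14 of 37 in CONV AsiDNA and 7 of 19 in FLASH. In members with 5 or more rule genes H2-DMb1 for CONV over FLASH turned from a log2 ratio of 1.01 to -1.24. The part of this make-up in the differences of the peptide-exchange genes was not tested. Class I presentation was even, with 0 of 12 genes past 2-fold for CONV against either library and 1 for CONV AsiDNA against FLASH, and B2m at 2640, 2878 and 2668 adjusted CPM.

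The interferon response list rested on few genes and few cells. Of 21 listed, 7 reached the minimum, of which 5 were higher and 1 lower against CONV AsiDNA (median 1.27) and 4 and 1 against FLASH (median 1.43). Isg15, a ubiquitin-like modifier, stood at 1166, 109 and 24 adjusted CPM, but it was above 0 in 2, 6 and 2 members, and 1 CONV member held 103 of its adjusted counts. Ifitm3, which restricts viral entry, was above 0 in 8, 4 and 2 members at 814, 66.4 and 120 adjusted CPM, and Bst2, tetherin, in 8, 9 and 7 at 275, 109 and 96.1. Irf7 was above 0 in 3 CONV members and listed at 0 in the other libraries, so it reached the minimum through CONV alone and is counted among the higher genes for that reason, and nothing is read from the list's counts and medians. Gbp2, an interferon-induced GTPase, ran the other way at 44, 163 and 180.

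Of the 5 p53 targets tested, 0 were higher and 1 lower in CONV against CONV AsiDNA, and 1 and 1 against FLASH. Cdkn1a, which encodes the cell cycle inhibitor p21, was above 0 in 5 of 21 CONV members, 19 of 37 CONV AsiDNA members and 11 of 19 FLASH members, at 165, 519 and 505 adjusted CPM. Its log2 ratios for CONV over the other libraries were -1.60 and -1.56. When H2-Ab1 was not asked for, the ratio of CONV over FLASH was -0.61. Pmaip1 (Noxa) and Btg2 were above 0 in most members and under 2-fold in each comparison, and Bax was above 0 in 11, 19 and 11. Plk2, a polo-like kinase and the gene counted as higher against FLASH, was above 0 in 3, 3 and 0 members. Of the 14 dissociation response genes tested, early genes that enzyme digestion can induce, 0 were higher and 4 lower in CONV against CONV AsiDNA (median -0.50), and 1 was higher and 3 lower against FLASH (median -0.53), beside 18.1% and 25.8% of all genes past 2-fold in either direction. Nothing is read from the list's counts and medians, since Jun, 1 of the 4 lower genes, reached the minimum only with the counts of CONV AsiDNA. Jun was the gene that ran the other way against FLASH, with a log2 ratio of 1.29, on 2 CONV members and 1 FLASH member above 0. With H2-Ab1 not asked for it turned to -1.09. Over CONV AsiDNA, Jun turned to 1.50 with 4 or more rule genes and to 1.89 with 5 or more, where a library was listed at 0. The part of the dissociation response genes in the other differences was not tested. Fos was above 0 in 4, 14 and 4 members at 99, 471 and 216 adjusted CPM, and Junb in 15, 34 and 17 at 946, 1762 and 1683. The log2 ratio of Fos for CONV over FLASH fell under 2-fold with 4 or more rule genes (-0.96). With 5 or more it turned to 3.57, where a library was listed at 0, and over CONV AsiDNA it fell to -0.85.

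Genes of the DC lineages were followed as well. Of the 10 cDC1 genes tested, 3 were higher and 1 lower in CONV against CONV AsiDNA (median 0.53) and 4 and 1 against FLASH (median 0.44), where scaling by the median gene ratio left 2 higher. Itgae and Ifi205, counted among the higher genes, reached the minimum sum only with the counts of CONV, where both are highest. Nothing is read from the list's counts and medians. Itgae (CD103) was above 0 in 6, 5 and 1 members at 165, 60.3 and 12.02 adjusted CPM. Its log2 ratio of CONV over CONV AsiDNA, 1.31, fell to 0.69 with 4 or more rule genes, and with 5 or more it was listed at 0 in CONV and FLASH. Ifi205 turned there from 1.37 to -0.076. Irf8, the cDC1 factor, was above 0 in 8, 17 and 7 members at 385, 489 and 433. Of the 7 cDC2 genes, 1 was higher and 1 lower in CONV against CONV AsiDNA. Mgl2, a lectin of cDC2, was above 0 in 7, 7 and 6 members. Of 11 lineage factors 0 passed 2-fold in CONV against CONV AsiDNA and 1, Flt3 with a log2 ratio of 1.03, against FLASH. That call was lost under scaling by the median gene ratio (0.91) and with H2-Ab1 not asked for (0.26). Of 14 receptors and factors of type 2 responses, 0 were higher and 2 lower in CONV against CONV AsiDNA, and 3 and 2 against FLASH, among them Stat4, a factor of IL-12 signalling, above 0 in 10, 10 and 4 members, and Il13ra1, an IL-13 receptor chain, above 0 in 4, 12 and 9. With H2-Ab1 not asked for, these calls were lost: Stat4 went from 1.85 to 0.11 for CONV over FLASH, and Il13ra1 to -0.86 over CONV AsiDNA and -0.74 over FLASH. Of the 19 genes of pattern recognition and uptake, Fcer1g alone reached the minimum, at 297, 187 and 421 adjusted CPM, and of the 14 cell cycle genes Hmgb2 alone, at 220, 199 and 144.

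**Figure D5:**
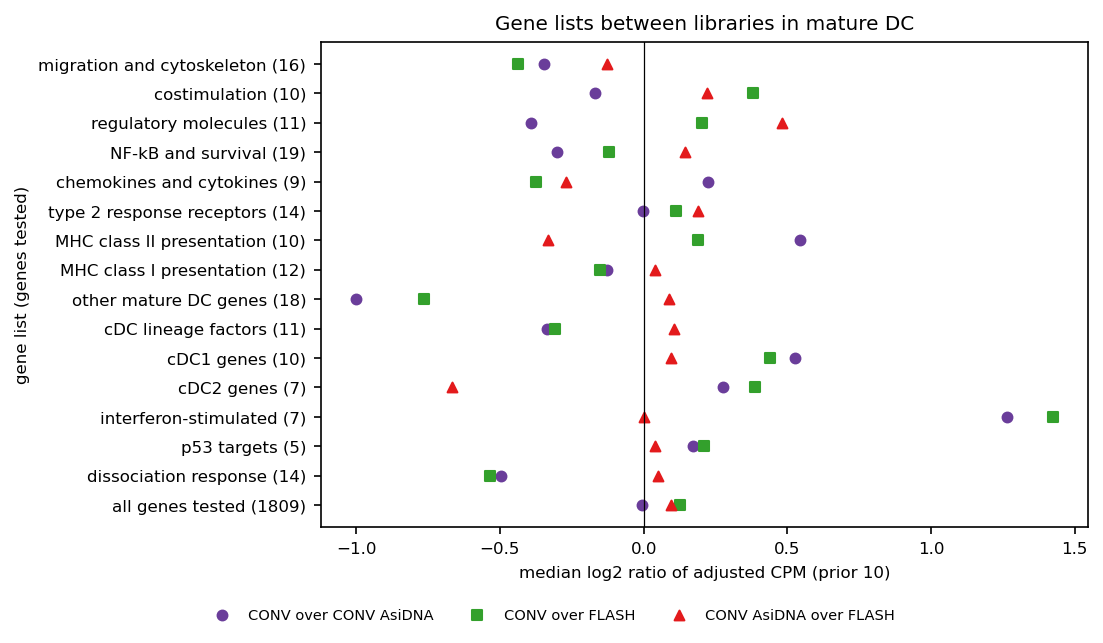
Median log2 ratio of adjusted CPM plus 10 (horizontal axis) of the tested genes of each functional list with at least 5 of them (number in brackets, lists of cell type markers not drawn) for the 3 comparisons of libraries in the members. Among the lists drawn, that of other mature DC genes lies farthest left for CONV over CONV AsiDNA (-1.002). Nothing is read from this median, since Anxa3 and Lad1 reached the minimum only with the counts of CONV AsiDNA. The interferon list stands on the right at 1.27 and 1.43, from which nothing is read since Irf7 reached the minimum through CONV alone, and all genes tested without those of the gates (1809) lie near 0.

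Several of the genes farthest from both other libraries were listed at 0 in a library. Ftl1, the ferritin light chain, was listed at 0 in the 21 CONV members and above 0 in 31 of 37 and 18 of 19 members of the other libraries, and Fth1, the heavy chain, was listed at 0 in CONV and above 0 in 10 and 8. Cstb and Prdx1 were likewise listed at 0 in CONV, and Tnfaip2 was above 0 in 1 CONV member. Cd63, a tetraspanin of endosomes, was above 0 in 22 of 37 CONV AsiDNA members and listed at 0 in the other libraries, as were Gclc, Gpx4, Lamp1 and Cybb in 7, 13, 14 and 6 members of CONV AsiDNA. In FLASH, mt-Co2 was above 0 in 11 of 19 members and listed at 0 in the others, while Gm42418, a transcript that overlaps ribosomal RNA, was above 0 in 14 and 32 members of CONV and CONV AsiDNA and listed at 0 in FLASH. Anxa3, an annexin, was above 0 in 3 and 18 members and Fabp5, a fatty acid binding protein, in 2 and 18, both listed at 0 in FLASH. Some of these run with the library as a whole: Gm42418 was above 0 in 93.0%, 93.9% and 5.15% of all cells of CONV, CONV AsiDNA and FLASH, and mt-Co2 in 36.8%, 28.1% and 70.4%. Ftl1 was above 0 in 29.4%, 38.4% and 41.9% of all cells and Cd63 in 30.1%, 24.5% and 23.3%, so these were not at 0 throughout a library. The part of the adjustment in these listings was not tested.

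Other genes set apart by library had members above 0 everywhere. In CONV, Ly6e, a surface antigen that interferon induces, was above 0 in 9, 2 and 3 members at 330, 36.2 and 48.1 adjusted CPM, Fosl2, an AP-1 factor, in 7, 4 and 2, and Ctsc, cathepsin C, in 8, 3 and 3. In CONV AsiDNA, Itgb7, Anp32e and Tmem258 were lowest, with 9, 4 and 4, with 9, 3 and 5 and with 9, 4 and 7 members above 0. In FLASH, Hexa, a lysosomal hexosaminidase, was above 0 in 3, 5 and 9 members and Arf3, a small GTPase, in 4, 6 and 9, though with H2-Ab1 not asked for Arf3 was under 2-fold against both other libraries. Cd207 (langerin) at 55, 54.3 and 349 adjusted CPM and Clec10a at 44, 18.1 and 156 were high in FLASH on 1 and 2 members. Over all genes, 21 were listed at 0 in every CONV member though above 0 in at least 25% of CONV AsiDNA members, and 13 though above 0 in that share of FLASH members. For FLASH these numbers were 17 against CONV and 29 against CONV AsiDNA, and for CONV AsiDNA 1 and 1. All of them are out of 22954 genes, with no minimum sum. A gene is less easily listed at 0 in all 37 members of CONV AsiDNA than in all 21 of CONV or 19 of FLASH. Nothing is read from the order of these numbers.

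Markers of other cell types were at or near 0 in the members. The rule asks for Cd3e, Cd79a, Chil3, C1qa and Epcam at 0. Low markers of T cells, B cells, macrophages and epithelium therefore follow in part from the rule and are no check of the label. All markers of B cells, NK cells, neutrophils, mast cells or basophils, alveolar epithelium, endothelium and fibroblasts were listed at 0 in every library. Of 10 T cell markers 9, 8 and 10 were at 0 in CONV, CONV AsiDNA and FLASH (summed 33, 18.1 and 0 adjusted CPM), with Cd3d, Trac and Lck at 0. Of 8 markers of interstitial macrophages 7 were at 0 in each library (11 to 24.1 adjusted CPM), and of 10 of alveolar macrophages 9, 8 and 8 were at 0 (132, 223 and 96.1). Monocyte markers were the exception, with 4, 5 and 5 of 8 at 0 and a sum of 1133, 736 and 745 adjusted CPM. Ly6c2, Ace and Fcgr4 were at 0, while Nr4a1, an early response gene, was above 0 in 12, 16 and 12 members and Ccr2, a chemokine receptor that the gated cDC carried as well, in 5, 6 and 2. In CONV, CONV AsiDNA and FLASH 6 of 21, 7 of 37 and 3 of 19 members had 2 or more of the 8. For alveolar macrophage markers 0, 3 and 0 members had 2 or more, and for plasmacytoid DC markers 1, 0 and 0. The part of these members in the results was not tested. Of 7 plasmacytoid DC markers 5, 5 and 4 were at 0 (198, 54.3 and 60.1), and Siglech was at 0.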

How the data were processed

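For each library the authors deposited natural log values of whole numbers plus 1 per gene and cell. Their adjustment for depth is not given in the sources used. The submitters' processing notes name Cell Ranger 6.0.0 and mm10, and the study names R and Seurat. The plan had allowed for raw UMI counts, but the values are adjusted, so no count model was fitted. No doublet caller was run. The adjusted count was recovered as the exponential minus 1. Adjusted CPM summed members per library, log2 ratios used a prior of 10 CPM, and genes with a sum of at least 20 were compared, with 2-fold as the limit. Shares have exact 95% intervals. Gate cells came from lists of genes above 0. Named were the rule genes, list genes by level and distance, the 15 highest and 5 lowest against cDC, and the 5 genes farthest above and below per library and above 0 in at least 5 members. Genes named to show how members with few and many rule genes differ, or that ran with whole libraries, were chosen after their values were seen. The members and lists were chosen with earlier results of these data known. The fold code and the membership rule were tested on simulated data. No use was made of 4 further tables of other experiments, which hold 12 columns of sample values and the authors' own fold changes and p-values. Software was matplotlib 3.10.9, pandas 2.3.3, scipy 1.17.1 and numpy 2.4.6 under Python 3.11.15.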

Additional observations from a re-analysis of the deposited data

Results flagged for a closer look

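A group of cells outside the members had the same rule genes. They numbered 12 in the CONV library, 35 in CONV AsiDNA and 15 in FLASH, and carried 3 or more rule genes, but had H2-Ab1 listed at 0. The excluding genes were not applied in this count. These cells were singled out because they lie outside the cells that the comparisons use. Of these 62 cells, 59 carried 5 or more rule genes, all 62 had Fscn1 above 0 and 60 had Relb. Cd74 was above 0 in 45 and H2-Aa in 32 of them, and Plbd1, Cd209a and Xcr1 in 0. Ccl5 was above 0 in 10, 32 and 6 of them, Anxa3 in 8, 29 and 1, and Cd200 in 10, 23 and 1. When H2-Ab1 was not asked for and the excluding genes were applied, the share of cells was 0.502%, 1.02% and 0.527% for CONV, CONV AsiDNA and FLASH. Why H2-Ab1 is listed at 0 in them was not tested.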

How the results depend on the processing

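No paired analysis was possible because each group is 1 library. The share of cells was highest in CONV AsiDNA under all 10 settings, while CONV lay above FLASH in 2 and below it in 8. The shares that moved beyond the interval, for CONV, CONV AsiDNA and FLASH where so, were 0.675%, 1.27% and 1.00% with 2 or more rule genes, 0.204% and 0.344% with 4 or more (CONV, CONV AsiDNA), 0.329% after thinning each cell to 1000 adjusted counts (CONV AsiDNA), and 0.188% and 0.358% without Il12b and Ccl22 in the rule (CONV, CONV AsiDNA). Chosen after seeing the data, 5 or more rule genes gave 0.141% and 0.329% (CONV, CONV AsiDNA), and leaving H2-Ab1 out of the rule gave 1.02% and 0.527% (CONV AsiDNA, FLASH). The share of gated DC fell to 8.41% and 8.07% with 5 or more rule genes (CONV, CONV AsiDNA). Of the genes 2-fold apart, a sum of at least 50 left 108, 167 and 58 for CONV over CONV AsiDNA, CONV over FLASH and CONV AsiDNA over FLASH. Genes lower than in cDC numbered 446 with a prior of 1, 464 with 4 or more rule genes, 564 with 5 or more and 231 with H2-Ab1 not asked for, where 259 were higher. With 5 or more rule genes, 141 of 175, 193 of 250 and 108 of 122 of the genes apart that could still be compared kept their side and 2-fold, and 2, 4 and 0 turned direction. With H2-Ab1 not asked for, 196 of 330, 257 of 472 and 117 of 255 kept both, and 10, 12 and 8 turned. Of the log2 ratios of named genes between libraries, 898 values kept side and 2-fold over the alternatives, 74 fell under 2-fold and 12 turned. Those that turned were, for CONV over CONV AsiDNA, Jun at 1.50 with 4 or more rule genes, Ifi205 at -0.076, Itgae at -1.56 and Jun at 1.89 with 5 or more, and Bcl2l14 at 0.078 with H2-Ab1 not asked for. For CONV over FLASH they were Fos at 3.57 and H2-DMb1 at -1.24 with 5 or more, and Ccl5 at -0.50 and Jun at -1.09 with H2-Ab1 not asked for. For CONV AsiDNA over FLASH they were Cd207 at 1.97 with 5 or more, and Jun at -0.27 and Stat4 at -0.43 with H2-Ab1 not asked for. For Jun at 1.50 and 1.89, Itgae, Fos and Cd207 a library was then listed at 0, so these values are set by the added 10 adjusted CPM and are no fold. The cause was not tested. With 19 to 37 members a library, genes above 0 in few members rest on single cells.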
